A study of Mus musculus with 8 samples.

Results

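The 10 genes described here relate to the making and conversion of progesterone and to the reception of follicle-stimulating hormone (FSH). They were read in the cumulus oocyte complex, the oocyte with the cumulus granulosa cells around it. The genes are Star, of cholesterol delivery into the mitochondrion, Tspo, for a cholesterol-binding protein of its outer membrane, and Cyp11a1 and Fdx1 of side-chain cleavage. The others are Hsd3b1, Cyp17a1 and Akr1c18 of the later steroid steps, the FSH receptor gene Fshr, and the nuclear receptor genes Nr5a1 and Nr5a2. Members were taken by gene symbol, with the probe set of the highest mean for each gene, and all 10 were measured, by 1 probe set each, among 19938 genes. PRKO mice carried lacZ, inserted into the gene of the progesterone receptor, on both alleles, which disrupts both receptor isoforms in every cell, and PR+/- mice, which carry the same insertion on 1 allele and are described by the submitters as normally fertile, were the controls. Both groups were 21 to 23 days old, received 5 IU of equine chorionic gonadotropin and 44 to 47 h later 5 IU of human chorionic gonadotropin (hCG), and gave complexes 8 h after hCG. Each array held the pooled complexes of 3 animals, for 4 arrays and 12 animals per genotype. RNA was read on Affymetrix whole-transcript arrays, and every value below is a log2 signal, so a difference of 1 is a doubling.

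Steroid synthesis begins when the protein encoded by Star moves cholesterol to the inner mitochondrial membrane. There the enzyme encoded by Cyp11a1 cleaves the side chain to give pregnenolone, with electrons passed on by the ferredoxin encoded by Fdx1, and the enzyme encoded by Hsd3b1 turns pregnenolone into progesterone. In the ovary FSH acts through its receptor on granulosa cells to drive follicle growth, and granulosa cells turn to progesterone synthesis after the ovulatory gonadotropin surge. The nuclear receptors encoded by Nr5a1 (steroidogenic factor 1) and Nr5a2 (liver receptor homolog 1) bind the promoters of many genes of steroid synthesis.

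Fshr fell in PRKO complexes, and its promoter is shown because Fshr was the member with the largest difference. That of Nr5a2 is shown as well, since, of the members with a promoter entry, only its windows held the hexamer that binds the progesterone receptor. RefSeq promoters (GRCm38.p6) matched 6 of the 10 members. Each line gives the 250 bases before the annotated start, on the gene's strand, which is the minus strand for both, with matched motifs in capitals. The Fshr window is chr17:89200676-89200925 and the Nr5a2 window is chr1:136960449-136960698.
Fshr: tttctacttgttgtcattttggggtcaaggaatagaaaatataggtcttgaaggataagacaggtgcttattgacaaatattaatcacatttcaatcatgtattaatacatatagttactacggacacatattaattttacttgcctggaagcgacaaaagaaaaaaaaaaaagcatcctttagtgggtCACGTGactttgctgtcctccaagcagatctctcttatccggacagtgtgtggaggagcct
Nr5a2: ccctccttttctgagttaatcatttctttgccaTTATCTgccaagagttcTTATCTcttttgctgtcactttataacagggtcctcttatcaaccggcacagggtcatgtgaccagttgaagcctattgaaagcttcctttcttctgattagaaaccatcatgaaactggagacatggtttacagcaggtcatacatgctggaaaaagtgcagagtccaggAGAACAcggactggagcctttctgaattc
In Fshr the capitals mark CACGTG, the E-box that the factors encoded by Usf1 and Usf2 bind, 61 to 56 bases before the start. That motif was in 6.02% of 32851 promoter windows of the same length. In Nr5a2 they mark AGAACA, the hexamer bound by the progesterone receptor, 29 to 24 bases before the start (in 16.1% of all windows), and 2 copies of AGATAA, which GATA factors bind (in 9.99%), on the opposite strand, so that they appear as TTATCT in the printed line. A window of Nr5a2 at a second annotated start held AGAACA too, 188 to 183 bases before that start, and the Hsd3b1 window held AGATAA. The windows of Fdx1, Akr1c18 and both annotated starts of Cyp11a1 held none of the motifs searched. Besides the 3 named motifs, the search covered AAGGTCA, which the Nr5a1 and Nr5a2 proteins bind (4.08% of all windows), its variant AAGGCCA (5.24%), and the core of the cAMP response element, TGACGT (6.47%). Each motif was searched on both strands. No searched motif overlapped another in these windows, and a match describes the letters only.

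Between genotypes, 2 of the 10 members passed an adjusted p of 0.05 in limma, Fshr as lower and Cyp11a1 as higher in PRKO. Over all genes 582 of 19938 passed, or 2.92%, with 1.43% higher and 1.48% lower. The PRKO and PR+/- arrays did not overlap for 3 of the 10 members, Fshr, Cyp11a1 and Tspo, against 10.2% of all genes. By an unadjusted p of 0.05, 4 members were counted, those 3 and Nr5a2 (16.0% of all genes). The median difference of the 10 was 0.0052, and that of all genes was 0.0043. Array medians lay between 5.35 and 5.46, lower quartiles between 3.92 and 4.00, and all members read above the lower quartile on every array. Pgr itself, the gene with the insertion, read 5.84, 5.23, 5.54 and 6.17 in PRKO and 6.09, 7.34, 6.54 and 7.15 in PR+/- (replicates 1 to 4). Its difference of -1.09 ± 0.26 (SE, limma adjusted p = 0.0452) did not pass without PRKO replicate 1, 2 or 3 or PR+/- replicate 2, 3 or 4 (adjusted p 0.0660 to 0.130), with robust moderation and an intensity trend (0.0753) or adjusted for the average signal of theca and stroma markers (0.119), and 1 PRKO array lay above the lowest PR+/- array. The position of the probe set against the insertion is unknown here, so it checks the labels only in part.

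**Figure D1:**
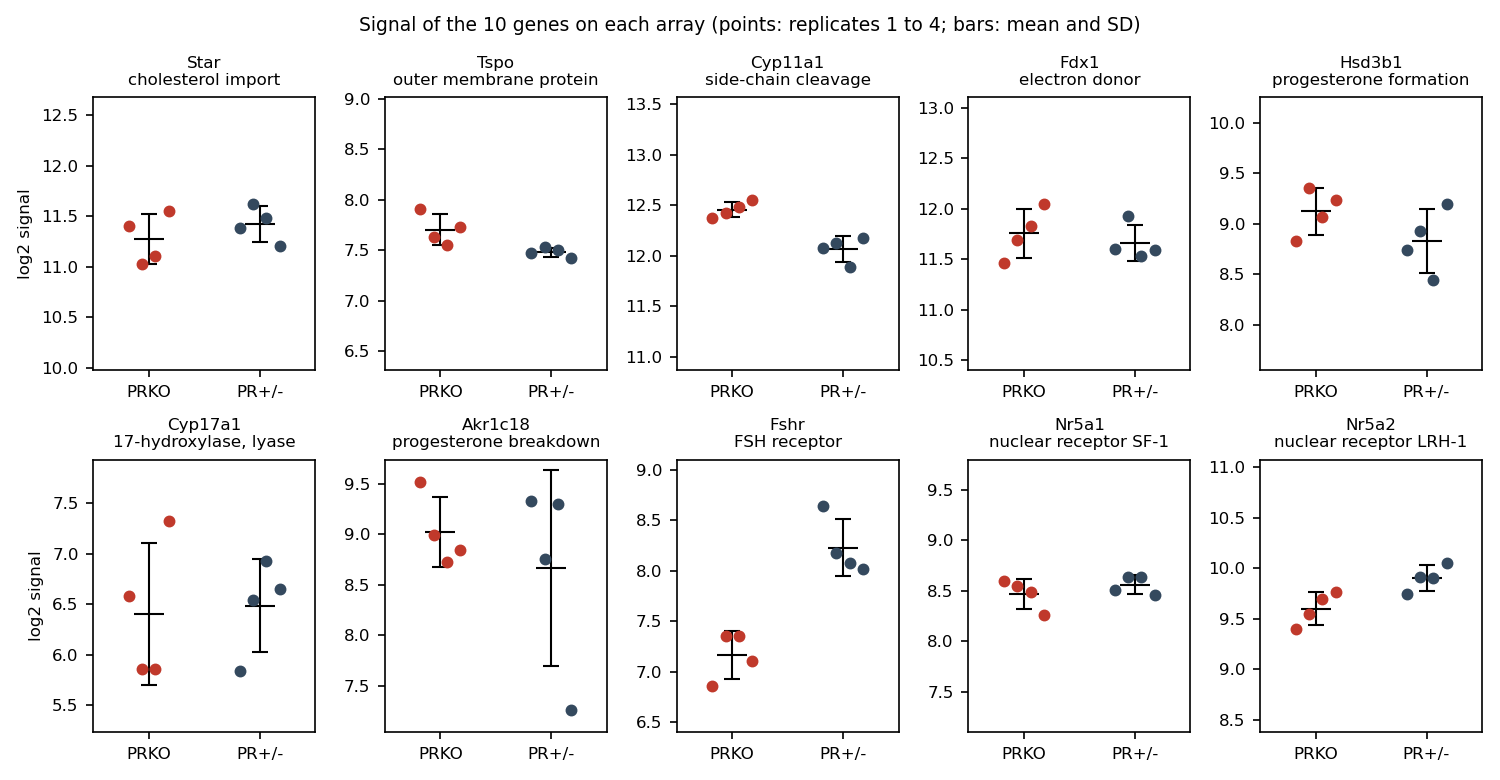
Log2 signal of each of the 10 genes (vertical axes, each spanning the same width) on the 4 PRKO arrays (red, left) and the 4 PR+/- arrays (dark, right), with the mean and SD as bars. The genotypes stand apart for Fshr (6.86 to 7.35 in PRKO, 8.02 to 8.64 in PR+/-), Cyp11a1 and Tspo, and 1 PR+/- array lies far below the rest for Akr1c18.

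Fshr, which encodes the receptor through which FSH raises cAMP in granulosa cells, was 2.09 times lower in PRKO. Its log2 signal was 6.86, 7.35, 7.35 and 7.10 in PRKO replicates 1 to 4 and 8.64, 8.18, 8.07 and 8.02 in PR+/- replicates 1 to 4. Every PRKO array lay below every PR+/- array, with a gap between the highest PRKO and the lowest PR+/- array wider than the spread within either genotype. The means were 7.17 ± 0.24 in PRKO and 8.23 ± 0.28 in PR+/- (SD, n = 4 arrays each). The difference was -1.06 ± 0.15 (SE, 95% interval -1.38 to -0.74, limma adjusted p = 0.00221), and it ranked 100 among all genes by p. A two-sided exact permutation test over the 70 arrangements of the arrays gave p = 0.0286, the smallest it can give. Any gene whose arrays do not overlap gets that value, so it only repeats the lack of overlap. Tspo, which did not pass in limma, had it too. With any 1 array left out the difference lay between -1.13 and -0.92, with a limma adjusted p of 0.00221 to 0.0100. In RNA from whole complexes, fewer cells of a type and less RNA per cell cannot be told apart. Of 8 cumulus cell markers 0 passed in limma, with 1, Npr2 (-0.37), at an unadjusted p under 0.05. Differences were positive for 4 of the 8 (median -0.02). The summed linear signal of the 8 ran from 5198 to 9999.8 in PRKO and from 4460 to 8282 in PR+/-. Tnfaip6 and Ptgs2, with the highest mean signal (11.04 and 10.94), weigh most in that sum. Adjusted for the theca and stroma marker mean, the Fshr difference was -0.81 (limma adjusted p = 0.0335).

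Granulosa cells outside the cumulus carry Fshr too, and 3 of 6 listed markers of mural granulosa and luteal cells were measured. Cd34, a surface glycoprotein, was 9.00 in PRKO and 10.44 in PR+/-, a difference of -1.44 ± 0.17 (SE, limma adjusted p = 0.000945). Ptgfr, the receptor of prostaglandin F, rose by 0.43 ± 0.10 (limma adjusted p = 0.0418), a call that ended without PRKO replicate 2, 3 or 4 or PR+/- replicate 2, 3 or 4 (0.0855 to 0.126), after quantile normalization (0.0700), with each array centred on its median (0.0592) and with the theca and stroma marker mean as covariate (0.0700). Nppc, the natriuretic peptide precursor, was at -0.34 ± 0.23 (0.524). The summed linear signal of the 3 ran from 1028 to 1369 in PRKO and from 1639 to 2514 in PR+/-, without overlap. Cd34 had the largest difference of the 3 and the highest mean signal (9.72, against 9.14 for Ptgfr). The fall of the sum therefore mostly follows Cd34, while Ptgfr went the other way. Cd34 is not particular to these cells, so the sum is not a result about mural granulosa and luteal cells as a whole. The part of these 3 genes in the Fshr result was not tested.

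The genes whose values over the 8 arrays were nearest to those of Fshr, each centred on its own mean, were Lrp8, a lipoprotein receptor gene, with a root mean square distance of 0.15 log2 units, and Mt1, Ddit4 and Papss2, each at 0.19 to 0.20. They encode a metallothionein (Mt1), an inhibitor of mTOR signalling (Ddit4) and an enzyme that makes the sulfate donor of the cell (Papss2). These genes were picked for their likeness to Fshr over the same arrays, so differences near that of Fshr follow from the choice. Lrp8 was 8.75 in PRKO and 9.79 in PR+/-, a difference of -1.04 ± 0.13 (SE, limma adjusted p = 0.00146). Differences were -0.97 for Mt1, -1.10 for Ddit4 and -0.80 for Papss2, with limma adjusted p of 0.00315, 0.00117 and 0.0305. The Papss2 call ended without PRKO replicate 1, 2 or 4 or PR+/- replicate 1 or 3 (0.0568 to 0.0875) and with the theca and stroma covariate (0.212).

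Star, whose protein delivers cholesterol to the inner mitochondrial membrane, did not pass the test. It read 11.40, 11.03, 11.11 and 11.55 in PRKO and 11.38, 11.62, 11.48 and 11.21 in PR+/-, and the genotypes overlapped. The highest PR+/- array stood above all PRKO arrays, and the lowest array was PRKO replicate 2. The difference was -0.15 ± 0.13 (SE, limma adjusted p = 0.626), and its 95% interval, -0.42 to 0.12, allows a log2 change of either sign. It lay between -0.24 without PRKO replicate 4 and -0.07 without PRKO replicate 2, and was -0.26 with the theca and stroma covariate. Tspo, a protein of the outer mitochondrial membrane that binds cholesterol, read 7.91, 7.63, 7.55 and 7.73 in PRKO and 7.47, 7.53, 7.50 and 7.42 in PR+/-. All 4 PRKO arrays lay above all 4 PR+/- arrays, and the PRKO arrays spanned 0.35, against 0.11 in PR+/-. The difference of 0.22 ± 0.09 (SE, 95% interval 0.03 to 0.41) had a limma adjusted p of 0.238 and did not pass. With the theca and stroma covariate it was 0.12.

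Cyp11a1, the side-chain cleavage enzyme that commits cholesterol to steroid synthesis, rose in PRKO, 1.31-fold. It read 12.37, 12.43, 12.49 and 12.55 in PRKO replicates 1 to 4 and 12.07, 12.13, 11.89 and 12.18 in PR+/- replicates 1 to 4. All PRKO arrays lay above all PR+/- arrays, and PR+/- replicate 3 was lowest. The means were 12.46 ± 0.08 in PRKO and 12.07 ± 0.13 in PR+/- (SD, n = 4 arrays each), and the difference was 0.39 ± 0.09 (SE, 95% interval 0.20 to 0.58, limma adjusted p = 0.0324). The exact permutation test, two-sided, gave p = 0.0286, again the smallest possible and again fixed by the lack of overlap. The limma call ended without PRKO replicate 2, 3 or 4 (adjusted p 0.0776, 0.0923 and 0.0882) and without PR+/- replicate 1, 2 or 3 (0.0743, 0.0604 and 0.0912), while the difference with any 1 array left out stayed between 0.33 and 0.43. The call also ended with each array centred on its median (0.36, adjusted p = 0.0642) and with the theca and stroma list as covariate (0.45, adjusted p = 0.0827).

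Fdx1, the ferredoxin that feeds electrons to the side-chain cleavage enzyme, read 11.46, 11.69, 11.83 and 12.04 in PRKO and 11.60, 11.93, 11.53 and 11.60 in PR+/-. PRKO replicates held both the lowest and the highest of the 8 arrays, so the PRKO range enclosed that of PR+/-. The difference of 0.09 ± 0.13 (SE, 95% interval -0.18 to 0.37, limma adjusted p = 0.783) did not pass. It was -0.0024 without PRKO replicate 4, 0.19 without PRKO replicate 1 and 0.25 with the theca and stroma covariate. So the gene of the enzyme passed and that of its electron donor did not, and the difference between these 2 changes was not tested. The genes nearest to Cyp11a1 over the 8 arrays were Nadk2, a mitochondrial NAD kinase gene, at a root mean square distance of 0.04 log2 units, then Noc3l, Tmed4 and Cdk4, at 0.04 to 0.05. As with Fshr, these genes were picked for likeness over the same arrays, so differences near that of Cyp11a1 follow from the choice. Their differences were 0.34, 0.34, 0.39 and 0.38, with limma adjusted p of 0.0665, 0.0407, 0.0332 and 0.0241. Calls of the last 3 ended without PRKO replicate 2, 3 or 4 or PR+/- replicate 1, 2 or 3 (adjusted p 0.0558 to 0.116) and with each array centred on its median (0.0530 to 0.0837). Those of Noc3l and Cdk4 also ended with the theca and stroma covariate (0.113 and 0.0610) and that of Noc3l after quantile normalization (0.0730), while Nadk2 passed with the filter on low signal (0.0413) and with the oocyte marker mean as covariate (0.0447).

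Hsd3b1, whose enzyme forms progesterone from pregnenolone, read 8.82, 9.35, 9.07 and 9.24 in PRKO and 8.74, 8.93, 8.45 and 9.20 in PR+/-. The 2 highest arrays were PRKO and the 2 lowest PR+/-, with overlap between. The difference was 0.29 ± 0.15 (SE, 95% interval -0.04 to 0.63, limma adjusted p = 0.392), and it did not pass. It was 0.17 without PR+/- replicate 3 and 0.52 with the theca and stroma covariate, and did not pass in either (0.679 and 0.212). Hsd3b1 belongs to a family of very similar genes, so its probe set may read relatives in part. Of these, Hsd3b2 was at 0.02 ± 0.09 and Hsd3b6 at -0.06 ± 0.14, and neither passed. Hsd3b2 read 2.93 in PRKO and 2.91 in PR+/-, under the lower quartile of the arrays, so its difference says little. Hsd3b6 read 4.90 and 4.96, under the array medians.

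Akr1c18 encodes the enzyme that reduces progesterone to a metabolite with little receptor activity. It read 9.51, 8.99, 8.73 and 8.85 in PRKO and 9.33, 8.76, 9.30 and 7.26 in PR+/-. PR+/- replicate 4 lay far below the rest of its genotype, and the other 7 arrays overlapped. The difference was 0.36 ± 0.37 (SE, 95% interval -0.45 to 1.16, limma adjusted p = 0.703) with all arrays and -0.11 (0.833) without PR+/- replicate 4. It was 0.58 without PR+/- replicate 1, 0.19 without PRKO replicate 1 and 0.20 with the theca and stroma covariate. Akr1c14, a relative chosen after its values were seen, read 8.52 to 9.33 in PRKO and 8.44, 9.41, 8.52 and 9.86 in PR+/- replicates 1 to 4, so the array lowest for Akr1c18 was the highest for Akr1c14. Among the members Akr1c18 varied most within a genotype, with a pooled SD of 0.73, above that of 99.96% of all genes.

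Cyp17a1, the hydroxylase and lyase that opens the androgen branch and is known as a theca cell enzyme in the mouse ovary, read 6.58, 5.85, 5.85 and 7.32 in PRKO and 5.83, 6.54, 6.92 and 6.65 in PR+/-. The arrays of both genotypes spread over more than a doubling, and each genotype had high and low arrays. The difference of -0.08 ± 0.31 (SE, 95% interval -0.75 to 0.58, limma adjusted p = 0.929) did not pass, and the pooled SD of 0.60 was above that of 99.85% of genes. Of 11 measured theca and stroma markers 0 passed in limma, 4 had an unadjusted p under 0.05 (16.0% of all genes), and 9 had positive differences (median 0.24). Their summed linear signal ran from 824 to 1148 in PRKO and from 731 to 936 in PR+/-. Their mean log2 signal was 6.27, 5.82, 5.95 and 6.09 in PRKO replicates 1 to 4, and 5.75, 5.65, 5.96 and 5.85 in PR+/- replicates 1 to 4. PRKO replicate 4, highest for Cyp17a1, was second highest in that mean, and PR+/- replicate 1, lowest for Cyp17a1, was second lowest. PRKO replicate 1, highest in that mean, and PR+/- replicate 2, lowest in it, were in the middle of the 8 arrays for Cyp17a1. With the marker mean as covariate the Cyp17a1 difference was -0.57 (limma adjusted p = 0.489), with the oocyte marker mean it was 0.0095 (0.989), and with 1 array left out it lay between -0.39 and 0.10. Ptch1 and Acta2, the markers with the highest signal, were at -0.00067 and 0.47.

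**Figure D2:**
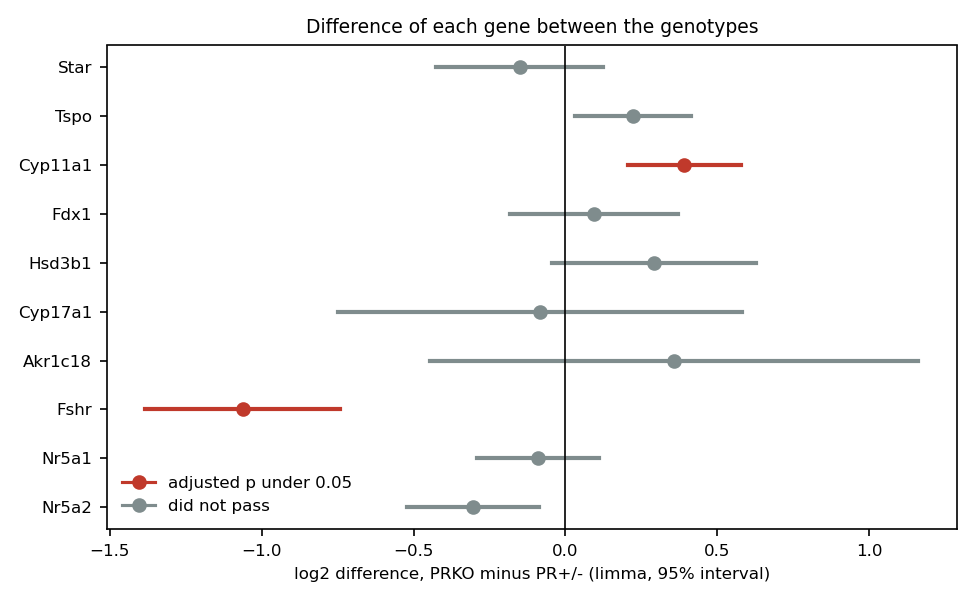
Log2 difference, PRKO minus PR+/- (horizontal axis), with its 95% interval from limma for each of the 10 genes. Fshr (-1.06) and Cyp11a1 (0.39), in red, passed an adjusted p of 0.05, and the intervals of Cyp17a1 and Akr1c18 are the widest.

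The nuclear receptor genes Nr5a1 and Nr5a2 did not pass. Nr5a1, needed for the formation of the gonads and adrenals, read 8.60, 8.54, 8.49 and 8.26 in PRKO and 8.51, 8.64, 8.64 and 8.46 in PR+/-. The arrays overlapped over most of their range, and the difference was -0.09 ± 0.09 (SE, 95% interval -0.29 to 0.11, limma adjusted p = 0.706), or -0.02 without PRKO replicate 4. Nr5a2, needed in granulosa cells for ovulation in mice, read 9.40, 9.55, 9.70 and 9.77 in PRKO and 9.75, 9.92, 9.91 and 10.06 in PR+/-. Only the highest PRKO array and the lowest PR+/- array crossed. The difference of -0.30 ± 0.10 (SE, 95% interval -0.52 to -0.09) had an unadjusted p of 0.0102 and a limma adjusted p of 0.149, from 0.0729 to 0.391 over the alternatives and arrays left out. The pooled SDs of the 10 genes ran from 0.10 for Cyp11a1 to 0.73 for Akr1c18, around a median of 0.14 over all genes.

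**Figure D3:**
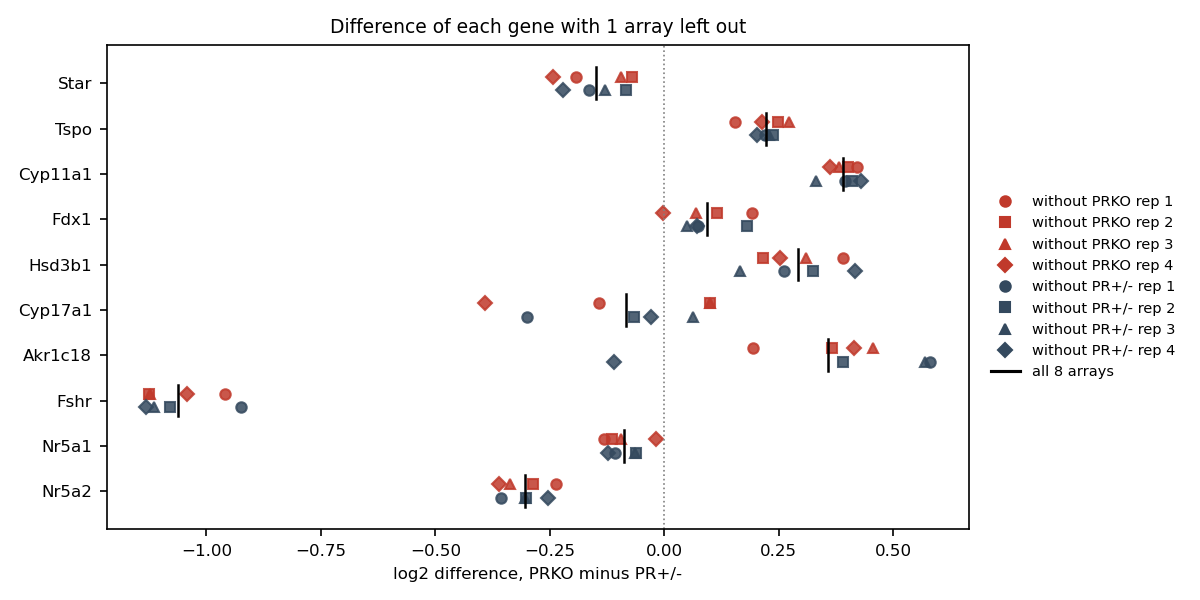
Log2 difference, PRKO minus PR+/- (horizontal axis), of each gene with all 8 arrays (black line) and with 1 array left out (points, red for PRKO and dark for PR+/- arrays). Fshr stays between -1.13 and -0.92, while Akr1c18 goes to -0.11 without PR+/- replicate 4 and Cyp17a1 and Fdx1 cross 0 as well.

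Other genes of cholesterol transport and handling (the cholesterol delivery list), not all of which bring it to the mitochondrion, were measured beside the members. Of 11 such genes, 1 fell, 0 rose and 10 did not pass, and the median difference was 0.17. Over all genes 2.92% passed. In this list 3 had an unadjusted p under 0.05 and 3 had arrays without overlap (16.0% and 10.2% of all genes). Stard5, a cytosolic lipid-binding relative of Star, was 6.75 ± 0.10 in PRKO and 7.50 ± 0.22 in PR+/- (SD, n = 4 each), a difference of -0.75 ± 0.11 (SE, limma adjusted p = 0.00309). It held with any 1 array left out. Npc2, which carries cholesterol out of lysosomes, was at 0.23 ± 0.08 (0.178), and Dbi, the diazepam binding inhibitor that binds the Tspo protein, at 0.22 ± 0.11 (0.372).

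Among 20 other measured steroid enzyme genes, 1 rose, 1 fell and 18 did not pass (median 0.0047). Counted by an unadjusted p under 0.05 there were 6, and by lack of overlap 4 (16.0% and 10.2% of all genes). Cyp1b1, which hydroxylates estradiol, was 6.88 ± 0.32 in PRKO and 7.97 ± 0.42 in PR+/- (SD, n = 4 each), a difference of -1.09 ± 0.20 (SE, limma adjusted p = 0.0118). Hsd17b7, which acts on estrone and in cholesterol synthesis, rose by 0.60 ± 0.09 (0.00300), to 10.07 in PRKO against 9.46 in PR+/-. Cyp11b1, an enzyme of adrenal corticosteroid synthesis, was at 0.65 ± 0.19 (0.107, and 0.0278 with the oocyte marker mean as covariate), and Cyb5a, the cytochrome that aids the lyase step of the Cyp17a1 enzyme, at -0.51 ± 0.19 (0.201). Cyp19a1, the aromatase gene, and Lhcgr, the receptor gene of luteinising hormone, were not analysed here.

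Of 19 genes that signal below the gonadotropin receptors, 1 fell, 0 rose and 18 did not pass (median -0.03). Among them 3 had an unadjusted p under 0.05 and 1 had arrays without overlap (16.0% and 10.2% of all genes). Arrb1, a beta-arrestin that uncouples activated receptors, was 6.79 ± 0.22 in PRKO and 7.38 ± 0.18 in PR+/- (SD, n = 4 each), a difference of -0.58 ± 0.12 (SE, limma adjusted p = 0.0260). That call ended without PRKO replicate 2, 3 or 4 or PR+/- replicate 1, 2 or 3 (adjusted p 0.0555 to 0.0854) and with the theca and stroma list as covariate (0.0858). The phosphodiesterase gene Pde4b was at 0.45 ± 0.14 (0.123, and 0.0171 without PRKO replicate 2), and Rgs2, a regulator of G protein signalling, at -0.26 ± 0.10 (0.222). Of 16 granulosa genes known to respond to FSH, 0 passed in limma and 4 had an unadjusted p under 0.05 (16.0% of all genes), with a median of -0.06. Amhr2, the receptor gene of anti-Müllerian hormone, was at 0.45 ± 0.13 (0.0937, and 0.0481 without PRKO replicate 1), and the inhibin subunit gene Inhbb at -0.44 ± 0.32 (0.570). Inhbb read 7.82, 8.45, 8.35 and 8.46 in PRKO and 7.97, 8.93, 8.12 and 9.80 in PR+/-, and its difference was -0.07 without PR+/- replicate 4. That array held the highest of the 8 values for 13 of the 16 genes, and without it the median was 0.03 and 0 passed. For Fshr the same array was the lowest of the 4 PR+/- arrays, and the Fshr difference without it was -1.13.

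Of 26 transcription factors of steroid-producing cells and their cofactors, 1 rose, 2 fell and 23 did not pass (median -0.07). An unadjusted p under 0.05 was reached by 9, and the arrays did not overlap for 7 (16.0% and 10.2% of all genes). Nr4a1, an immediate-early nuclear receptor gene induced by gonadotropins, was 10.95 ± 0.16 in PRKO and 10.27 ± 0.34 in PR+/- (SD, n = 4 each), a difference of 0.68 ± 0.15 (SE, limma adjusted p = 0.0324). The call ended without PRKO replicate 2, 3 or 4 or PR+/- replicate 1 or 3 (0.0848 to 0.105). Cebpb, a factor of granulosa cell luteinisation, was at -0.57 ± 0.10 (0.00966, and 0.0522 with the theca and stroma list as covariate). Wt1, a zinc finger factor of granulosa cells, was at -0.56 ± 0.11 (0.0149), and passed no longer without PRKO replicate 2 or 3 or PR+/- replicate 3 (0.0509 to 0.0587). Gata6 (-0.41 ± 0.10, limma adjusted p = 0.0536) and Foxo1 (-0.37 ± 0.13, 0.164, and -0.24 without PR+/- replicate 4) did not pass. Gata6 did pass after quantile normalization (0.0366) or median centring (0.0462), with the filter on low signal (0.0362), with robust moderation (0.0448), with probe sets averaged per gene (0.0486) and with the oocyte covariate (0.0491). Usf1 and Usf2, whose products bind the E-box and which were chosen after their values were seen, were at -0.0028 ± 0.10 and -0.17 ± 0.07, and neither passed (limma adjusted p = 0.993 and 0.276). The Usf2 arrays did not overlap (7.56 to 7.70 in PRKO, 7.79 to 7.81 in PR+/-, limma unadjusted p = 0.0366), as for 10.2% of all genes.

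**Figure D4:**
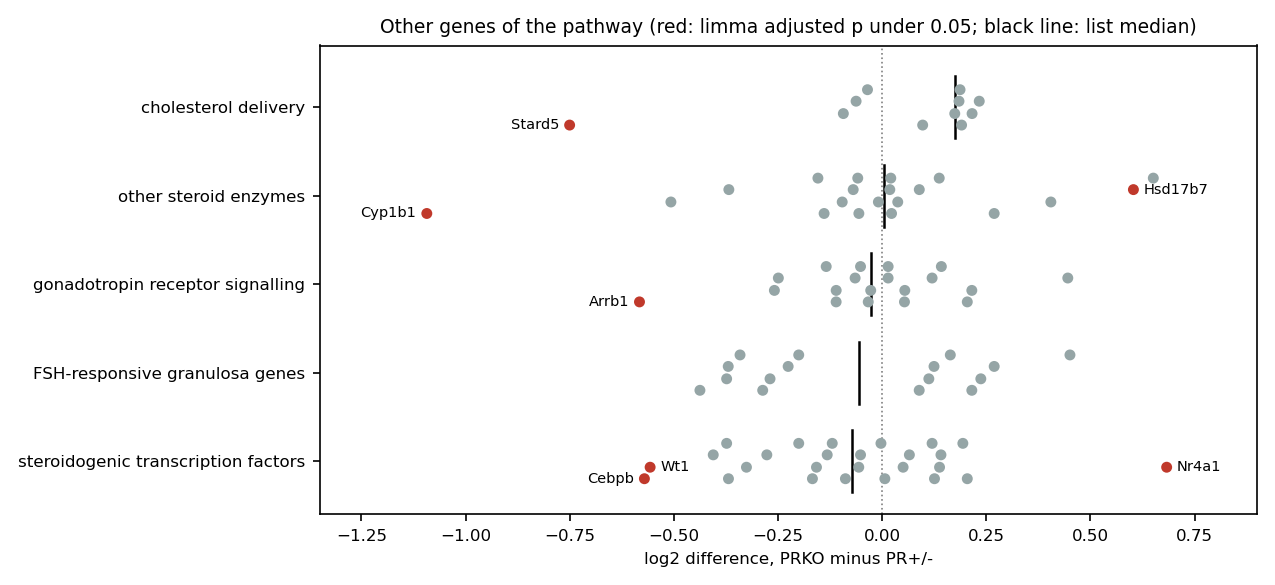
Log2 differences, PRKO minus PR+/- (horizontal axis), of the measured genes of 5 lists (rows), with genes past the limma threshold in red and named, and each list's median as a black line. In each list most genes did not pass, and the medians lie between -0.07 and 0.17.

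Among the listed oocyte, leukocyte, endothelial and erythrocyte markers, Kdr was the 1 gene that passed. Of 12 oocyte markers 0 passed in limma, and 0 had an unadjusted p under 0.05, with Padi6 at -0.11 and Bmp15 at 0.19. Of 7 leukocyte markers 0 passed and 0 had an unadjusted p under 0.05, with Cd68 at 0.21 and Csf1r at 0.06. Of 7 endothelial markers Kdr, a receptor gene of vascular endothelial growth factor, passed, at 0.80 ± 0.15 (SE, limma adjusted p = 0.0126, up to 0.0512 without PRKO replicate 3 and 0.0508 without PR+/- replicate 3). Cdh5 was at -0.29, and passed without PRKO replicate 1 (-0.44, adjusted p = 0.0456). The mean log2 signal of the 7 ran from 4.97 to 5.15 in PRKO and from 4.87 to 4.95 in PR+/-, and their summed linear signal from 263 to 286 in PRKO and from 233 to 242 in PR+/-, both without overlap. Differences were positive for 4 of the 7 (median 0.06) and negative for Cdh5, Vwf and Tie1. Cd34, listed with the mural granulosa and luteal markers though not particular to them, was not among the 7. It was lower in PRKO (-1.44, limma adjusted p = 0.000945). Kdr, at 6.54 in PRKO and 5.74 in PR+/-, had the largest difference of the 7. The mean and the sum without Kdr were not computed, so their lack of overlap is not a result about endothelial markers as a whole. The part of these markers in the Fshr and Cyp11a1 results was not tested. The 1 measured erythrocyte marker, Alas2, did not pass (0.10). Among the cumulus markers, the 2 with the highest signal, Tnfaip6 and Ptgs2, were at 0.16 and 0.03. Npr2, Slc38a3 and Amh were at -0.37, -0.29 and -0.27, and 4 of the 8 cumulus markers had positive differences.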

How the data were processed

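The deposited table holds a log2 signal for each probe set on each array, from biotin-labelled cRNA on Affymetrix whole-transcript arrays, per the labels. The submitters' processing notes name Partek. How background was corrected and arrays normalized is not stated in the sources used here. Base 2 was inferred because values reach 14.08, and any other common base would exceed a 16-bit scanner's 65535. Values of 35556 probe sets were complete, and the 21789 with exactly 1 gene symbol were tested. The number of arrays limits the precision.

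Differences are PRKO minus PR+/- from limma 3.58.1 (lmFit and eBayes) in R 4.3.3, two-sided, on all 8 arrays without covariates, with Benjamini-Hochberg adjustment across these 21789 probe sets and a threshold of 0.05. The fit was tested on simulated data. Differences of group means were also tested by exact permutation of the arrays. Tables and plots used Python 3.11.15, pandas 2.3.3 and matplotlib 3.10.9. The members and lists were chosen with earlier results of these data known.

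Named were the members, Pgr, up to 6 passing genes and the 2 largest others of each pathway list, the 4 genes nearest to each passing member, and the 2 markers of highest signal per cell type. Exceptions are named where they occur. Alternatives were a replicate block, quantile normalization, median centring, a filter at the median signal, robust moderation with an intensity trend, unmoderated errors, array weights, testing every probe set, averaging a gene's probe sets, a threshold of 0.1, theca and stroma or oocyte markers as covariates, and each array left out.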

Additional observations from a re-analysis of the deposited data

Results flagged for a closer look

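Tmed4, a gene named for its likeness to Cyp11a1, had 1 PR+/- array far from the other 3: replicate 3 read 9.28, and its gap to the nearest array took 0.93 of the group's range, above Dixon's 95% critical value for 4 samples. All 49 named genes were checked in both genotypes. By chance about 1 group in 20 would be marked this way. Tmed4 in PR+/- was the only group marked, so none of the 10 member genes was.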

How the results depend on the processing

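Of the 10 members, Star, Tspo, Hsd3b1, Nr5a1 and Nr5a2 kept their sign and did not pass under any of the 20 alternatives, and Fshr passed under 19. Without moderation 0 members passed (Fshr -1.06, adjusted p = 0.0890; Cyp11a1 0.39, 0.104), and 106 genes in all did. 1 member passed, Fshr, with median centring (Cyp11a1 0.36), with all probe sets tested (Cyp11a1 0.39, adjusted p = 0.0865; 206 genes) and with the theca and stroma list as covariate (Cyp11a1 0.45; 267 genes), and 932 genes passed an adjusted p under 0.1. Leaving out 1 array gave 1 or 2 members, 301 to 532 genes (582 with all arrays), 0.33 to 0.43 for Cyp11a1, and signs that crossed 0 for Fdx1 (-0.0024 to 0.19), Cyp17a1 (-0.39 to 0.10) and Akr1c18 (-0.11 to 0.58). With oocyte markers as a covariate Cyp17a1 was at 0.0095, and with theca and stroma markers at -0.57. Of the 20 named genes that passed, 19 did not pass without moderation, 12 with all probe sets, 8 with the theca covariate and 5 with median centring. Quantile normalization gave 173 higher and 303 lower genes, and median centring 166 and 303, against 286 and 296.

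Counts in the lists moved as follows. Without moderation they were 0 for cholesterol delivery, 1 for other steroid enzymes, 0 for gonadotropin receptor signalling and 0 for transcription factors, and with all probe sets 1, 0 and 1 for the last 3. Receptor signalling had 0 with the theca covariate, and FSH-responsive genes had 1 at an adjusted p under 0.1. With 1 array left out they were 0 to 1 for receptor signalling, 0 to 1 for FSH-responsive genes and 1 to 4 for transcription factors. Marker genes near 0 changed sign: Ptch1 to 0.012 with array weights and 0.00057 with the oocyte covariate, Ptgs2 to -0.035 with array weights and -0.17 with the theca covariate, and Bmp15 to -0.0065 with the theca covariate. With 1 array left out, the ranges were -0.062 to 0.082 for Ptch1, -0.028 to 0.30 for Tnfaip6, -0.19 to 0.18 for Ptgs2, -0.31 to 0.088 for Padi6 and -0.13 to 0.44 for Bmp15. The cause was not tested.

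The labels do not say that a replicate number marks a shared litter or day, and for that reason the arrays were not treated as pairs. Same-numbered arrays of the genotypes had deviations correlated at 0.06 to 0.16 across genes, 3 of 4 pairs over 0.1, and 4 of 8 arrays were nearest to their own number. Correlations of differently numbered arrays are not given here, and pairing stays undecided. With the replicate number as a block 671 genes, the same 2 members (Fshr, adjusted p = 0.00524; Cyp11a1, 0.0388) and 5 other steroid enzymes passed, among them Cyp11b1 (0.0142) and Cyb5a (0.0344). Gata6 passed as well (0.0356), while Ptgfr (0.0643) and Noc3l (0.0567) did not.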
